A study of Mus musculus with 8 samples.

Results

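The 51 genes described here had signal at least 2 times as high in a wildtype myotube RNA as in a truncated Egr-3 myotube RNA, and also at least 2-fold higher signal in RNA275 than in RNA276, a second pair of myotube RNAs. They were chosen by these 2 differences, from array signals raised to a minimum (a floor), 70 for array type A and 110 for type B, and the same probe set of a gene had to show both. They are 51 of 11832 genes with a probe set above the floor in at least 1 of the 4 RNAs, and of 18193 genes named on the arrays. Because the measured differences chose the genes, those differences are given as a description with no test.

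Total RNA came from mouse myotubes, the multinucleated cells that form when muscle precursors fuse. By its title the series is about Egr3-regulated genes of primary myotubes. The 4 RNAs were each hybridised to 1 array of type A and 1 of type B, 8 arrays in all, and the types hold different probe sets. The label of the first RNA calls it the wildtype and lists growth as its treatment, and that of the second calls it truncated Egr-3 with the same treatment. RNA275 carries an acclimatization treatment, and for RNA276 only the cell type and the RNA number are stated. The labels used here do not state strain, age, the way the truncated Egr-3 was introduced or how RNA275 and RNA276 relate to the other pair. With 1 RNA a label there are no replicates, so no p-value is given, and a difference describes these RNAs and not the conditions.

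Egr3 is a zinc-finger transcription factor of the early growth response family, which binds GC-rich elements in gene promoters and is induced by growth factors and cell activity. In muscle it is known for its part in the formation of the muscle spindle, the stretch receptor whose intrafusal fibres depend on sensory innervation. Truncated forms of such factors are commonly used as controls that cannot activate target genes, but the labels used here do not state what this truncated form lacks.

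Egr3 itself is read once on each array type. Its signals on type A were 769 in wildtype, 830 in truncated Egr3, 1454 in RNA275 and 2627 in RNA276, and on type B they were 1420, 1039, 1203 and 771 in that order. The probe sets therefore went opposite ways in RNA275 against RNA276, at -0.85 (type A) and 0.64 (type B) in log2. A probe set outside the altered part of a transcript checks nothing about a label, and the positions of these probe sets were not analysed here. All 7 myotube markers, among them Myog, Ckm and Myh3, were above the floor in all 4 RNAs, with summed signals between 10288 and 13433. Adipocyte markers were below the floor in all 4 RNAs. Of 7 macrophage markers 1 (Csf1r) was above it, and of 6 fibroblast markers 4 were, with summed signals between 6943 and 8382. Signal near the 3′ end over that near the 5′ end was 1.05 to 1.19 for the beta-actin controls and 0.720 to 0.832 for those of Gapdh. The very long transcripts of Ttn and Neb, titin and nebulin, read lower in RNA276 (354 and 377) than in RNA275 (704 and 1568), and in both lower than in wildtype (1850 and 3305) and truncated Egr3 (1627 and 2752). This bears on RNA quality in both RNA275 against RNA276 and RNA275 against wildtype, and its part in the results was not tested. Both array types carry 100 of the same probe sets, and 98 were above the floor on all 8 arrays. Over these, the technical SD of a single log2 difference was 0.167 for wildtype minus truncated Egr3 and 0.151 for RNA275 minus RNA276. These SDs leave out the mean offset of type A minus type B, which was 0.15 and 0.05 in that order. Those probe sets were brighter than the members (median signal 350 against 178 on type A, 1546 against 272 on type B), so the members can carry a larger technical error.

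Over the 11832 measured genes, 152 (1.28%) had some probe set 2-fold or more above truncated Egr3 in wildtype, and 816 (6.90%) above RNA276 in RNA275. The 51 members (0.431% of measured genes) are 33.6% of the first list and 6.25% of the second. Only a gene that read at least 2 times the floor in both wildtype and RNA275 could be a member, and 6497 genes had such a probe set, of which the members are 0.785%. A further 49 of the 152 genes (32.2%) were at least 2-fold lower in RNA275 than in RNA276, where 370 of the 11832 measured genes were. Of these 49 genes, 18 are on a list of 26 interferon response genes, written with earlier results of these data known. No gene of that list was a member, which is no result where 0.431% of measured genes were members. With equal array medians in place of the deposited scale the wildtype split went from 152 higher and 125 lower to 111 higher and 178 lower, and 36 of the members met the rule.

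**Figure D1:**
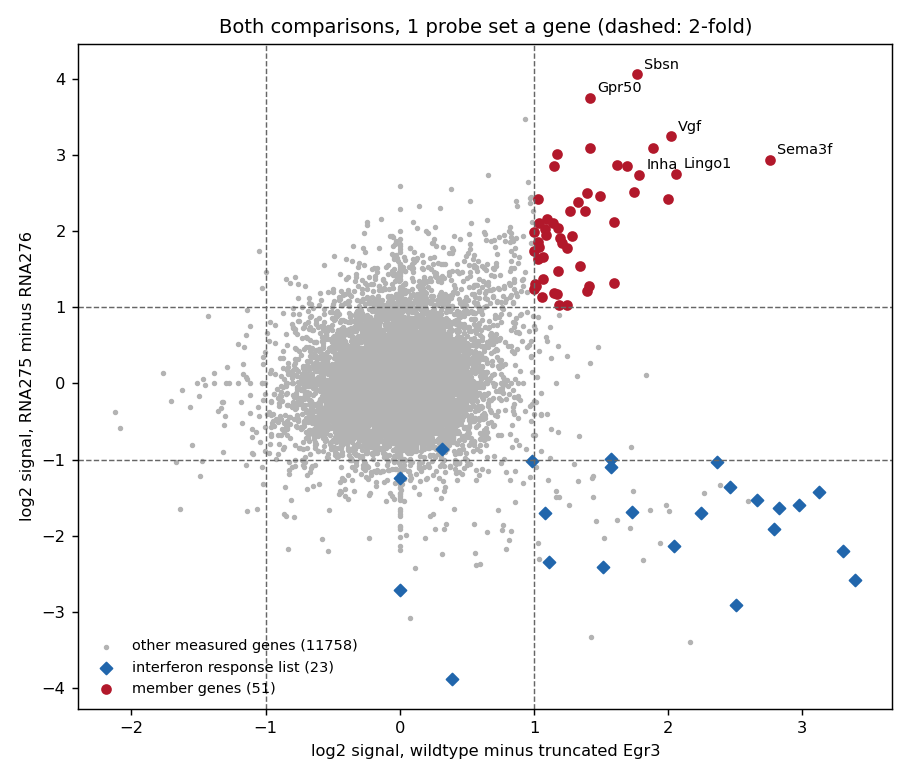
Log2 difference of wildtype minus truncated Egr3 (x axis) against RNA275 minus RNA276 (y axis) for measured genes, 1 point a gene, with dashed lines at 2-fold. The 51 member genes (red) fill the upper right corner that the rule defines and reach 4.06 on the y axis, while interferon response genes (blue) lie at the lower right.

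Among the members, the difference was larger between RNA275 and RNA276 (median log2 2.03, from 1.03 to 4.06) than between wildtype and truncated Egr3 (median 1.21, from the threshold of 1 to 2.76). Over all measured genes the same differences had medians of -0.01 and 0.00 and SDs of 0.555 and 0.356, so the first comparison was the wider one for genes in general. For 24 members the wildtype difference is a lower bound, because the truncated Egr3 array was at or below the floor, and for 23 members the RNA275 difference is one. In 19 members both are bounds and in 23 neither is. A fold written below as "at least" is such a bound, measured against the floor.

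The 10 secreted and ligand genes had a median log2 difference of 1.56 for wildtype against truncated Egr3, the highest of the groups by role. For RNA275 against RNA276 it was 2.60, below the 2.76 of the receptor and membrane group. These groups were made after the members were known, so their order is a description only. Sema3f, a class 3 semaphorin that repels growing axons, read 744 in wildtype, 89.1 in truncated Egr3, 1007 in RNA275 and 132 in RNA276. That is at least 6.76-fold in the first pair, the largest floored fold of the members there, and 7.65-fold in the other. Its relative Sema3b read 249, 98.2, 333 and 114 in the same order, or 2.53-fold and 2.91-fold. These semaphorin genes lie on chromosome 9, 4 protein-coding genes apart in the RefSeq annotation.

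Vgf, the precursor of neuropeptides stored in secretory granules and a gene induced by neurotrophins, was almost without signal in the low RNAs. It read 446 in wildtype and 1047 in RNA275 against 15.8 in truncated Egr3 and 29.6 in RNA276, at least 4.06-fold and at least 9.52-fold. Inha, the inhibin alpha subunit that pairs with a beta chain to oppose activins, read 770 and 1513 against 224 and 226. Its folds of 3.44 and 6.69 are measured on both sides, and its levels in the 2 low RNAs differed by 0.02 in log2. Tgfb1, the transforming growth factor, read 603 and 1182 against 266 and 286, or 2.27-fold and 4.13-fold.

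Sbsn, suprabasin, a secreted protein of differentiating epidermis, had the largest floored fold between RNA275 and RNA276 of the 51 members. It read 1318 in wildtype, 387 in truncated Egr3, 5962 in RNA275 and 357 in RNA276, or 3.40-fold and 16.7-fold. Olfm2, a secreted olfactomedin glycoprotein, read 338 and 807 in the high RNAs and 21.9 and 62.9 in the low ones, at least 3.07-fold and at least 7.33-fold. C1ql3, a secreted C1q-like protein of synapses, read 197 and 386 against 66.9 and 66.6. The membrane-bound chemokine Cx3cl1 (fractalkine) read 161 and 263 against 55.7 and 73.6. Efna3, the membrane-anchored ephrin-A3, read 260 and 378 against 45.7 and 59.4. In each of these 10 genes RNA275 read above wildtype, and both read above the 2 low RNAs.

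Receptors and other membrane proteins had medians of 1.42 and 2.76 over 7 members. Lingo1, a co-receptor that limits axon growth and myelination, read 420 in wildtype and 473 in RNA275 against 101 and 56.0 in truncated Egr3 and RNA276, or 4.16-fold and at least 6.75-fold. Gpr50, an orphan receptor related to the melatonin receptors, read 294 in wildtype, 7.03 in truncated Egr3, 1484 in RNA275 and 86.7 in RNA276. Its floored fold of at least 13.5 between RNA275 and RNA276 came after that of Sbsn, while the wildtype fold was at least 2.67. Sstr2, a receptor for somatostatin, read 227 and 505 against 66.8 and 53.3, at least 3.24-fold and at least 7.22-fold. Tmem178, a transmembrane protein, read 407 and 941 against 9.55 and 34.1, and the orphan receptor gene Gpr162 read 308 and 584 against 117 and 103. Mfsd6, of the major facilitator superfamily, read 170 and 269 against 59.6 and 34.3. Slc4a11, a transporter of the bicarbonate transporter family, met the rule just above the threshold.

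**Figure D2:**
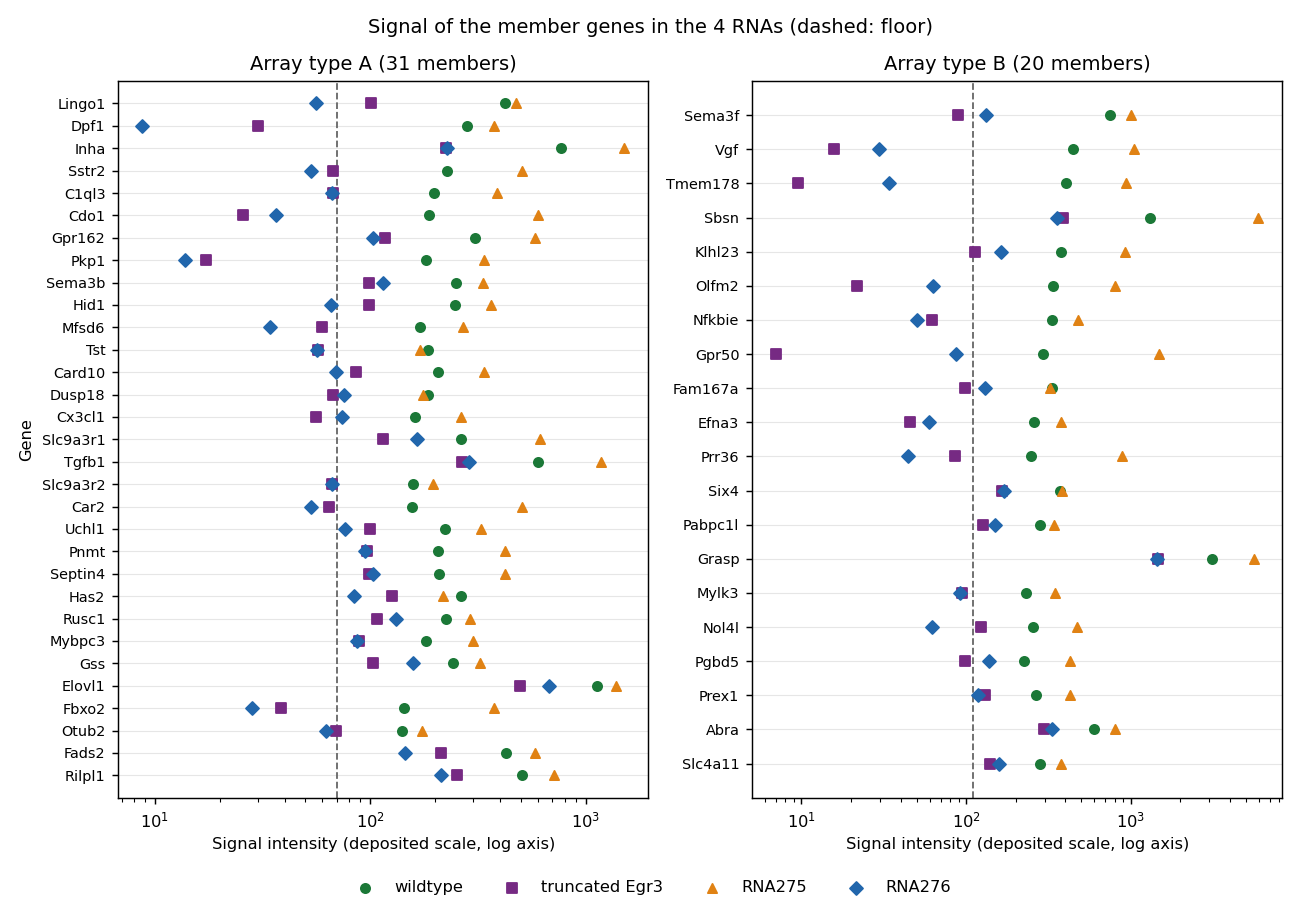
Signal intensity on a log axis for the 51 member genes, 1 row a gene and 1 marker an RNA, with the floor of each array type as a dashed line. Wildtype and RNA275 lie to the right in every row, as the rule requires, and RNA275 is the rightmost marker in 47 rows.

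Promoter sequences were read for the members with an entry in the RefSeq table of GRCm38.p6, which gives 250 bases before and 50 after a gene's start. Such entries were found for 37 of the 51 members, with 55 promoters in all, and for 9535 measured genes. A gene counted as having a motif if any of its promoters held it. The number of promoters of the measured genes was not compared, so the motif shares are not adjusted for it. The Egr element was searched as GCGTGGGCG or GCGGGGGCG on both strands, since the rule did not use sequence. One or the other was in a promoter of 6 of 37 members (16.2%), of 7.60% of measured genes and of 3.93% of all 27025 genes in the table. GCGTGGGCG was in 2 member promoters (5.41%, against 1.38% of measured genes), and GCGGGGGCG in 4 (10.8%, against 6.39%). Member promoters had a median GC content of 64.7%, against 60.7% for measured genes, and a median of 18.0 CG dinucleotides, against 20.0. No test was made on these counts, and a match is not evidence of binding. Stretches of 100 bases before the start are shown for the 5 members whose match lies there, with the match in capitals. Each is written 5′ to 3′ along the gene's strand.

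The stretches lie at chr7:25686835-25686934 (plus strand) for Tgfb1, chr3:89322995-89323094 (minus) for Efna3, chr11:113619227-113619326 (plus) for Sstr2, chr4:118429601-118429700 (plus) for Elovl1 and chr17:24650306-24650405 (minus) for Slc9a3r2, all in GRCm38.p6. The matches begin at -122, -110, -47, -52 and -38 in that order, where -1 is the last base before the start. In Tgfb1 and Efna3 the match is on the opposite strand, so its reverse complement is what is printed.
Tgfb1: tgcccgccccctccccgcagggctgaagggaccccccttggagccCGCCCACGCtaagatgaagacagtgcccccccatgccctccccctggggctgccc
Efna3: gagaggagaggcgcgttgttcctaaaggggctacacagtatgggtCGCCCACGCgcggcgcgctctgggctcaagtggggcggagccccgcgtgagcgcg
Sstr2: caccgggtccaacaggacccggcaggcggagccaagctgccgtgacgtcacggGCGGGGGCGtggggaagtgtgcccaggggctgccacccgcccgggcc
Elovl1: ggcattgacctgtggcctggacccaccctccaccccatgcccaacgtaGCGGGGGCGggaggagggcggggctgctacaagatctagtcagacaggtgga
Slc9a3r2: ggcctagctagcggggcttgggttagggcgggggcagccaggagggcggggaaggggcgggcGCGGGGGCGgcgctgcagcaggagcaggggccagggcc

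The sixth gene was Prex1, where GCGGGGGCG, on the opposite strand, lies past the last base before the start. In the Sstr2 stretch the cyclic AMP response element TGACGTCA (lower case) spans -58 to -51, next to the Egr match. That element was in 2 of 37 member promoters (Sstr2 and Olfm2; 5.41%) and in 3.37% of measured genes. The E-box CAGCTG was in 9 (24.3%, against 18.4%), TGANTCA, the AP-1 element, in 4 (10.8%, against 6.30%) and TATAAA in 4 (10.8%, against 9.16%). The MEF2 element was in 1 (Mybpc3) and the CArG box of serum response factor in none, where 2.19% and 1.67% of measured genes had them.

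Enzymes of amine, sulphur, lipid and matrix metabolism numbered 8, with medians of 1.17 and 1.68. Cdo1, cysteine dioxygenase, which begins the breakdown of cysteine, read 187 in wildtype and 598 in RNA275 against 25.6 and 36.6 in truncated Egr3 and RNA276. Its folds are at least 2.67 and at least 8.54. Tst, the mitochondrial sulphurtransferase rhodanese, read 186 and 170 against 57.3 and 56.5, and was 1 of 4 members in which wildtype exceeded RNA275. Also in this group were Gss, glutathione synthetase, Car2, a carbonic anhydrase, and Pnmt, which makes adrenaline from noradrenaline. The others were Fads2 and Elovl1, a desaturase and an elongase of fatty acids, and Has2, which makes hyaluronan.

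Signalling proteins and scaffolds were 10 members with medians of 1.19 and 1.88. Nfkbie, an inhibitor that holds NF-kappaB in the cytoplasm, read 332 and 478 against 62.1 and 50.7, at least 3.02-fold and at least 4.35-fold. Card10, a scaffold upstream of NF-kappaB, read 207 and 336 against 86.1 and 69.7. Hid1, a protein needed for dense-core secretory granules, read 247 and 364 against 98.4 and 65.6. Dusp18, a dual-specificity phosphatase, read 185 in wildtype and 175 in RNA275 against 67.4 and 75.3. The remaining members of this kind were the PDZ scaffolds Slc9a3r1, Slc9a3r2 and Grasp, the Rac activator Prex1, the adaptor Rusc1 and the Rab-interacting protein gene Rilpl1. Grasp had the brightest probe set of the members in the wildtype RNA, at 3131, and read 1474 in truncated Egr3, 5587 in RNA275 and 1444 in RNA276. It lies outside the rule for named values and was picked after its values were seen.

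Genes of ubiquitin handling were 4. Klhl23, a kelch-like protein, read 378 and 927 against 113 and 162, or 3.35-fold and 5.73-fold. Uchl1, a deubiquitinating enzyme abundant in neurons, read 222 and 328 against 100 and 76.3, or 2.21-fold and 4.31-fold. The deubiquitinase Otub2 and Fbxo2, an F-box protein that recognises glycoproteins, were the others.

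Nuclear and muscle genes were 8, with medians of 1.05 and 1.64. Dpf1, a neuronal subunit of the BAF chromatin remodelling complex, read 280 and 374 against 30.2 and 8.74, at least 5.34-fold for RNA275 over RNA276. Six4, a homeobox factor of muscle precursors, read 372 and 385 against 165 and 171, so both pairs gave a fold of 2.25. Also of this kind were Mybpc3 and Mylk3, a myosin-binding protein and a myosin kinase named for the heart, and Abra, an actin-binding protein of striated muscle. Nol4l, Pabpc1l, a poly(A)-binding protein, and Pgbd5, derived from a transposase, completed the group. Of the last 4 members, Pkp1, plakophilin of desmosomes, read 182 and 336 against 17.2 and 13.8, and Fam167a read 332 and 324 against 98.4 and 130. The others were Septin4, a filament-forming GTPase, and Prr36.

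The 23 members outside the rule for named values ranged from the threshold of 1 to 1.24 in log2 for wildtype against truncated Egr3 and from 1.03 to 3.01 for RNA275 against RNA276. Many members lie close to the threshold: 18 had a smaller fold under 2.2, and 45 genes outside had one from 1.8 to just under 2. Just inside were Slc4a11 (280 against 140 in the first pair, 377 against 159 in the second), Fads2 (427 against 213, 579 against 145) and Rilpl1 (506 against 253, 714 against 213), with wildtype differences of 1.002, 1.002 and 1.001 in log2. Just outside, with a floored wildtype fold of 1.98, were Arc (139 against 20.7, 335 against 38.4), Zbtb7c (218 against 44.9, 317 against 132) and Garem1 (555 against 281, 843 against 194). Arc is an activity-induced gene that Egr factors are reported to regulate, and the wildtype folds of Arc and Zbtb7c are lower bounds.

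How the members stood across the pairs was not set directly by the rule, but these comparisons share its arrays. With the low RNAs held near each other, RNA275 minus wildtype largely restates how far the RNA275 difference exceeded the wildtype difference. It did so in 46 of 51 members, by a median of 0.76 in log2 over all 51. The values that follow are therefore a description, and the measured genes beside them were not chosen by the rule. RNA275 read above wildtype in 47 of 51 members, with a median log2 difference of 0.69 and a range from -0.28 (Has2) to 2.34 (Gpr50). Over measured genes the median was 0.00, 95% of genes lay between -0.74 and 0.92, and 49.3% were above 0. In 14 members RNA275 was at least 2-fold above wildtype, among them Gpr50 at 5.05-fold, Sbsn at 4.52-fold, Prr36 at 3.57-fold, Car2 at 3.26-fold and Cdo1 at 3.20-fold. At least 2-fold differences in that direction were seen in 1.90% of measured genes. Those exceeding the other way were Has2, Tst, Dusp18 and Fam167a, none of them below -0.28 in log2. The mean of the shared probe sets was 0.23 lower on type A than on type B in this difference, and their technical SD was 0.177.

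In the low RNAs the rule and the floor hold the members near to each other, so their closeness is no result. RNA276 minus truncated Egr3 had a median of 0.00 over the members, from -0.59 (Has2) to 0.62 (Gss). In 19 members both arrays were at or below the floor, which gives a difference of 0 by construction. Before the floor some of these differed, as Gpr50 did at 7.03 in truncated Egr3 and 86.7 in RNA276. In 18 members RNA276 was above truncated Egr3 and in 14 below.

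**Figure D3:**
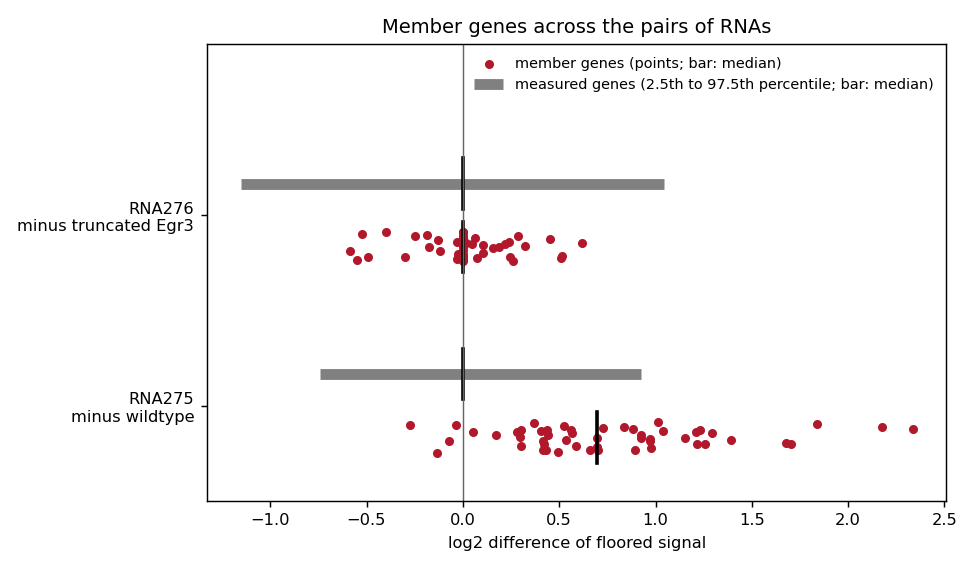
Log2 difference across the pairs, RNA275 minus wildtype (bottom) and RNA276 minus truncated Egr3 (top), with member genes as points, the central 95% of measured genes as grey bars and medians as black lines. The members' median is 0.69 at the bottom and 0.00 at the top, where the rule and the floor hold the points near 0.

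The members had 54 other probe sets, for 29 genes, and 44 for 26 members were above the floor in at least 1 RNA. They share the RNAs and contrasts of the rule, so they show how far probe sets of a gene go together. In wildtype minus truncated Egr3, 37 of 44 were above 0, 2 below and 5 at 0, with a median of 0.46, and 7 reached 2-fold. In RNA275 minus RNA276, 39 were above 0, 3 below and 2 at 0, with a median of 1.14, and 23 reached 2-fold. In 5 members (Elovl1, Slc9a3r1, C1ql3, Rusc1 and Sbsn) another probe set met the rule as well, and 22 members had no other probe set.

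The members differed in this respect. A second Sbsn probe set read 1254 and 4903 against 254 and 147, and gave larger differences of 2.30 and 5.06. The third, dimmer one read 75.7 and 262 against 7.62 and 11.2, which gave 0.00 and 1.25 once floored. C1ql3 gave 1.34 and 2.61 by one other probe set and 0.13 and 2.03 by another. Slc9a3r1 gave 1.15 and 1.88 by one and 0.81 and 0.74 by another. For Elovl1, differences were larger by other probe sets on type A (1.34 and 1.76, 1.32 and 1.66, against 1.19 and 1.03). Its type B probe set gave 0.31 and -0.20, lower in RNA275 (172) than in RNA276 (197). For Rusc1, the type B probe set gave larger differences (1.08 and 1.59, against 1.06 and 1.14). Its other type A probe sets gave 1.03 and 1.98, 0.09 and 1.18, and 0.04 and 0.09. The last of these was brighter than the probe set used, at 625 against 225 in wildtype. Lingo1 was also read on type B, at 409 and 641 against 213 and 202, with differences of 0.94 and 1.66. The Tgfb1 probe set on type B went otherwise, at 184 in wildtype, 170 in truncated Egr3, 193 in RNA275 and 320 in RNA276, or 0.12 and -0.73. Six4 gave 0.17 and 0.45 by one probe set and -0.14 and 0.67 by another. Grasp gave -0.08 and -0.29 by its other type B probe set and 0.78 and 1.87 by that on type A. Both other Sema3f probe sets were dim and above the floor in RNA275 alone, at 120 (37.3 in wildtype) and 70.1 (48.3 in wildtype). Chosen without regard to the rule, as the brightest on type A or, where type A had none, on type B, the probe set of 12 members did not meet it. These members are C1ql3, Efna3, Fads2, Gpr50, Grasp, Has2, Nfkbie, Rusc1, Sema3f, Six4, Slc4a11 and Slc9a3r2. The probe sets of 11 members carry a name suffix for several transcripts or possible cross-hybridisation, those of Sema3f, Sbsn, Six4 and Grasp among them.

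**Figure D4:**
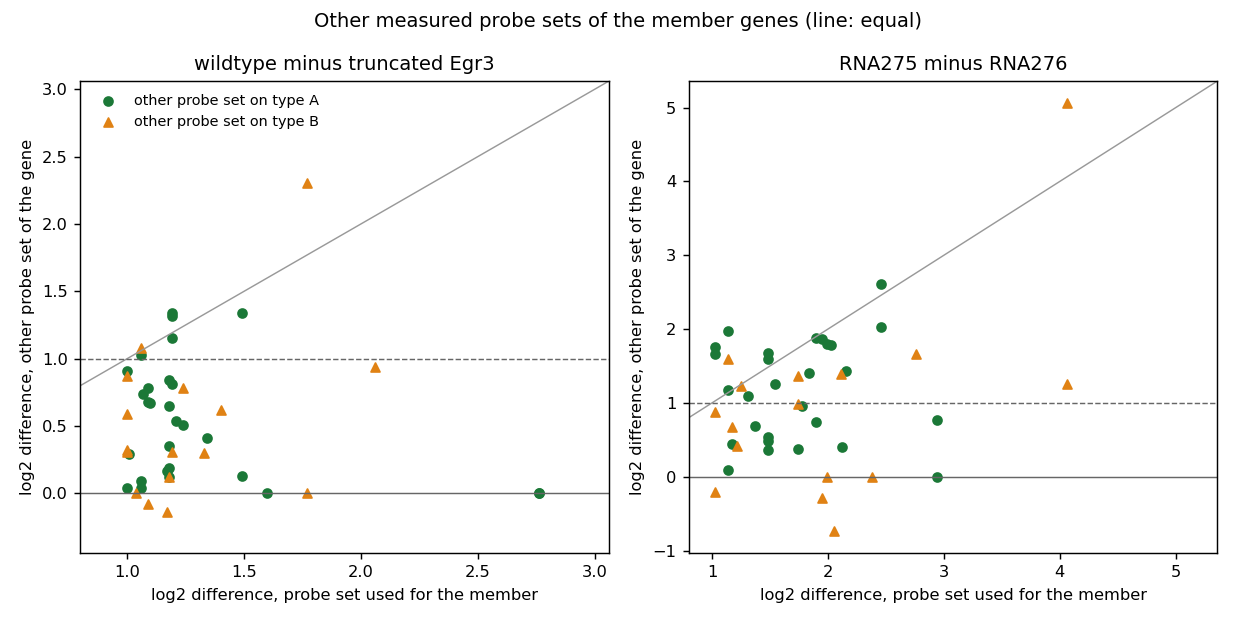
Log2 difference of each of the 44 other measured probe sets (y axis) against that of the probe set used for the member (x axis), for both comparisons, with circles for type A, triangles for type B and a line of equality. At the left 37 points lie above 0 with a median of 0.46, and at the right 39 with a median of 1.14.

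The lists of related genes were read by 1 probe set a gene, by which 0.972% of measured genes were called higher and 0.575% lower in wildtype, and 4.94% higher and 2.36% lower in RNA275. Of 19 measured genes reported as Egr targets, 1 was 2-fold higher in wildtype (Tgfb1) and none lower, with a median of 0.05. In RNA275, 4 were higher (Ngfr, Arc, Tgfb1 and Nab1) and 1 lower (F3), with a median of 0.15. Ngfr, the low-affinity neurotrophin receptor, read 128 in wildtype, 15.5 in truncated Egr3, 353 in RNA275 and 24.9 in RNA276, at least 0.87 and at least 2.34 in log2. Nab1, a corepressor of Egr proteins, read 300, 285, 446 and 215. The other 14 measured genes of the list were under 2-fold apart in both comparisons.

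Of 24 neuropeptide and granule genes on the arrays, 17 were below the floor in all 4 RNAs. Among the 7 measured, Vgf and Inha were higher in both comparisons and Penk, the enkephalin precursor, in RNA275 alone (103, 34.8, 202 and 48.9 in the order above). Inha, an inhibin subunit and not a neuropeptide, was put on this list with earlier results of these data known. Cpe, a peptide-processing enzyme, was lower in wildtype, at 156 against 409, and differed by 0.13 in log2 in the other pair. Of 16 measured presynaptic and neuronal cytoskeleton genes, Uchl1 was higher in both comparisons and Cplx2, a regulator of vesicle fusion, in wildtype alone (209 against 102). Of 6 neuron markers, Snap25, Tubb3, Elavl4 and Stmn2 were below the floor in all 4 RNAs, and Syt1 read between 188 and 246. Nefl was above the floor in RNA276 alone, at 73.6. The summed signal of the 6 was 338 in wildtype, 405 in truncated Egr3, 407 in RNA275 and 347 in RNA276.

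Immediate early genes and feedback regulators of MAP kinase signalling held no member. Of 32 measured, none was 2-fold apart between wildtype and truncated Egr3, while 7 were higher in RNA275 and 1 lower, with medians of 0.01 and 0.03. Dusp5, a phosphatase of ERK, read 383 in RNA275 against 55.8 in RNA276 and 47.7 and 51.1 in the other pair. Nr4a3, an orphan nuclear receptor, read 305 against 21.4, and 68.4 and 16.9 in the other pair. In the spindle and neurotrophic list 3 of 11 measured genes were higher in RNA275 (Ngfr, Etv4 and Nrtn) and none was 2-fold apart in wildtype.

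Among myogenic regulators, 1 of 19 was higher in wildtype (Mymx) and 1 lower (Myf6), and 2 were higher (Hey1 and Id2) and 2 lower (Myf6 and Twist1) in RNA275. Six4 is on this list by another probe set than the one that made it a member. The factor Myf6 was low in both wildtype and RNA275 (73.7 and 65.0 against 229 and 220). Hey1, a Notch-induced repressor, read 124, 38.5, 254 and 10.8. None of 44 measured sarcomere genes was 2-fold apart in wildtype, and 3 were higher (Neb, Myl2 and Mybpc2) and 1 lower (Lmod2) in RNA275. The smooth muscle marker Smtn was higher in RNA275 (907 against 418), and the satellite cell marker Vcam1 lower (155 against 397). The fibroblast marker Dcn was lower in wildtype than in truncated Egr3 (157 against 317), and read 257 in RNA275 and 202 in RNA276. The other measured markers of these kinds were under 2-fold apart. In RNA275 against RNA276, Tagln read 1633 and 1220 and Acta2, the other way from Smtn, 2890 and 3576. Pax7 read 526 and 661 and Cdh15 500 and 617. The part of cell mixture in the members' differences was not tested, and in bulk RNA fewer cells of a kind and less RNA per cell cannot be told apart.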

How the data were processed

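The deposited values are intensity values on a linear scale, 1 a probe set, on 2 array types; their software and normalization: not given in the sources used here. The intensities deposited by the authors had a mean of 150.0 on all 8 arrays after trimming 2% of probe sets at each end, so their scale was kept. The arrays of an RNA, 1 of each type, were not taken as replicates, and the number of arrays limits the precision. Gene names came from the platform table: 20380 probe sets on type A and 14661 on type B had 1 symbol, 691 and 245 several, and 1555 and 7605 none. All 51 members matched RefSeq (GRCm38.p6) by gene number.

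Signals were floored at 70 (type A) or 110 (type B) before log2. Where several probe sets met the rule, the brightest over the 4 arrays was kept, type A first. Between 46.2% and 49.7% of type A probe sets and between 39.3% and 42.1% of type B were above the floor, which is not a detection rate. The members, lists and motifs were chosen with earlier results of these data known. Values were named for the 25 members with the largest smaller difference and for members on a list, and from each list up to 3 genes 2-fold apart, not all of which are shown. Groups of members by role were made after the members were known. The alternatives were 3 other scalings, 3 other floors, thresholds of 1.5-fold and 3-fold and other choices of probe set. The rule was tried on simulated data with changes planted only in genes well above the floor. That trial covers the working of the rule and not the error of dim members. Python 3.11.15, numpy 2.4.6, pandas 2.3.3, statsmodels 0.14.6 and matplotlib 3.10.9 were used.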

Additional observations from a re-analysis of the deposited data

How the results depend on the processing

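The number of genes that met the rule depended on the floor and the threshold. It was 96 with lower floors (50 and 80), 30 with higher floors (100 and 160), 687 with none, 252 at 1.5-fold and 11 at 3-fold, in place of 51. The genes higher in wildtype numbered 234, 97, 2156, 677 and 43 under the same settings, in place of 152. Those higher in RNA275 numbered 3220 with no floor, 1942 at 1.5-fold and 193 at 3-fold, in place of 816, and 530 when the brightest probe set of a gene was chosen first. The 636 genes added without a floor did not reach 2-fold in both comparisons once signals were floored. The count of members was 50 with quantile normalization, 50 with loess and 36 with equal medians, of which 47, 46 and 36 were the original ones. Equal medians moved the median of type B probe sets by -0.11 in wildtype minus truncated Egr3, and 8 of the 15 members lost were on type B. In 24 members the rule was met under all 4 scalings and all 4 floors. Under the 6 other scalings and floors no difference of a named member changed direction. A floor cannot reverse a difference, and the members were chosen at 2-fold or more, so this is no support for them. With higher floors 9 named members (C1ql3, Cdo1, Cx3cl1, Dusp18, Efna3, Gpr50, Mfsd6, Pkp1 and Tst) fell under 2-fold. All 9 did so in wildtype minus truncated Egr3 (0.69 to 0.98), and Tst (0.76) and Dusp18 (0.81) also in RNA275 minus RNA276. RNA275 exceeded wildtype in 46 to 49 of the 51 members, with a median between 0.69 and 0.80, a comparison chosen after seeing the data. Another floor cannot reverse the direction of this comparison either. No paired analysis was possible because each label has 1 RNA.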

Other observations

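Beside the named genes, 7 probe sets with no gene symbol (5) or several (2) met both thresholds and were left out of the members. Their log2 differences were between 1.03 and 1.77 for wildtype minus truncated Egr3 and between 1.07 and 2.56 for RNA275 minus RNA276. The members lay on 17 chromosomes, and no members were neighbours among protein-coding genes. Slc9a3r1 and Hid1, 9 genes apart on chromosome 11, were the other pair within 10 genes. In the other combinations, 13 genes were at least 2-fold lower in both wildtype and RNA275, and 7 were lower in wildtype and higher in RNA275. Another 49 were higher in wildtype and lower in RNA275. Of the 11832 measured genes, 125 were lower and 152 higher in wildtype, and 370 lower and 816 higher in RNA275.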
